A study of Mus musculus with 21 samples.

Results

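The genes of fatty acid oxidation and of the peroxisome were followed as a set of 38 genes among the 54123 genes that the deposited quantification covers. The set was compiled by name and function, with earlier results of these data known. By role it holds 5 genes of fatty acid uptake and activation, 5 of the carnitine shuttle, 5 acyl-CoA dehydrogenases, 4 genes of the later steps of the mitochondrial spiral, 6 enzymes that deal with double bonds, 3 of electron transfer, 8 of the peroxisomal spiral and membrane, 1 thioesterase and 1 transcriptional regulator. All 38 passed the filter on low counts in each fit, so no member is missing from the counts below.

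The study measured the transcriptomes of renal tubular epithelial cells (TECs, from the kidney) and polymorphonuclear neutrophils (PMNs, from the blood) by RNA sequencing, and asked how remote ischemic preconditioning (RIPC) changes them with and without renal ischemia-reperfusion injury (IRI). The mice were wild type males on a C57BL/6 background, aged 8 to 12 weeks, and cells were taken 24 hours after the operation. RIPC was short bouts of cuff occlusion of a hind limb before the operation, control animals had a cuff without limb ischemia, IRI was clamping of both renal pedicles, and sham animals had the operation without clamping. The 21 libraries form 8 groups. TECs came from 3 sham control, 3 sham RIPC, 2 IRI control and 3 IRI RIPC libraries, and PMNs from 2 sham control, 3 sham RIPC, 2 IRI control and 3 IRI RIPC libraries. The methods describe TECs obtained by digestion of kidneys and selection for prominin-1, a marker that favours proximal tubule cells. The study describes its libraries as biological replicates. The labels tie no library to a single mouse, and the p-values measure the spread between these libraries.

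Fatty acids are the main fuel of the proximal tubule. A fatty acid is activated to its acyl-CoA, enters mitochondria as a carnitine ester and is shortened by repeated rounds of dehydrogenation, hydration, dehydrogenation and thiolysis, while electron-transferring flavoprotein passes the first electrons to the respiratory chain. Peroxisomes shorten very long and branched chains by a parallel spiral with its own oxidases, bifunctional enzymes and thiolases, and nuclear receptors of the PPAR and ERR families, with the coactivator PGC-1 alpha, switch on many of these genes.

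Receptors of these families and HNF4A bind copies of the hexamer AGGTCA, so the members' promoters were searched for it and for longer motifs on both strands. Promoters of 34 of the 38 members were in the RefSeq table for build GRCm38.p6, which covers 250 bases before to 50 bases after each start site. The hexamer was found for 5 of the 34 members (14.7%), namely Acadm, Acadvl, Acsm1, Cpt1a and Slc27a2, against 18.1% of all 27025 genes in the table. Neither the direct repeat of the hexamer with 1 base between its copies (DR1, 0.0481% of all genes), nor a looser DR1 that left the fourth base of each copy free (0.451%), nor the ERR motif TCAAGGTCA (0.466%) was found for a member. The HNF4 motif CAAAGTCCA (0.555% of all genes) was found for Abcd3 alone. A match is only a run of letters in this window, and the longer motifs hold the hexamer or a variant of it. The 3 stretches below belong to members whose RNA fell after IRI, and capitals mark the hexamer, which reads TGACCT where it lies on the opposite strand.
Slc27a2: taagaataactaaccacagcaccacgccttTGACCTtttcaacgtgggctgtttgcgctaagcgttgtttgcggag
Acadm: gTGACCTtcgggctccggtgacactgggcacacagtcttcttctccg
Acadvl: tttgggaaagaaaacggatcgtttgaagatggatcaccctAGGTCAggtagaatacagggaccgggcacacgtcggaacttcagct
The Slc27a2 stretch lies at chr2:126552774-126552849 on the plus strand, before the RefSeq start site but inside the Gencode gene, which begins at 126552407. The Acadm stretch is at chr3:153944847-153944893 on the minus strand, upstream of the Gencode gene, and the Acadvl stretch is at chr11:70015470-70015555 on the minus strand, also upstream of its gene.

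Library totals ran from 20881334 to 51624602 reads. Levels below are normalized counts (CPM, a count divided by its library total and scaled to a common total, with TMM scaling within each cell type). The TEC libraries carried proximal tubule transcripts at a summed level of 19074 to 30858 CPM after sham and 3842 to 12066 CPM after IRI over 20 markers, none of which was at 0 throughout, and TEC IRI RIPC replicate 3 stood above the other 4 IRI libraries, which lay between 3842 and 5686 CPM. TEC sham control replicate 1 stood apart by its 13 injury markers, with a sum of 11453 CPM against 1476 to 3256 CPM in the other 5 sham libraries. The PMN libraries went partly against their label, since their summed proximal tubule markers reached 13541 CPM in sham control replicate 2 and 3847 to 7000 CPM in sham RIPC, against 1599 CPM in sham control replicate 1 and 782 to 1338 CPM after IRI. Summed macrophage markers (12 genes) exceeded summed neutrophil markers (16 genes) in 4 of the 5 PMN sham libraries and in none of the 5 PMN IRI libraries. In the TEC libraries neutrophil markers summed to 2 to 173 CPM, with Camp at 0 in all 11. In bulk samples like these, fewer cells of a type and less RNA per cell cannot be told apart.

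In TECs the set was lower 24 hours after IRI. Averaged over RIPC and control, 8 of the 38 members fell and none rose (edgeR's quasi-likelihood test, Benjamini-Hochberg adjusted p under 0.05), where 1.4% of the 25917 genes tested passed in either direction and 1.15% were lower. The 8 were Etfb, Slc27a2, Acaa2, Ech1, Acadvl, Hadh, Acadm and Eci1. The median log2 fold change of the members was -1.14 against 0.15 for all genes, 33 of the 38 lay below 0, and 24 had an unadjusted p under 0.05 (15% of all genes did). In 18 members each of the 5 IRI libraries lay below each of the 6 sham libraries (3.16% of all genes did), and in no member did all IRI libraries lie above (1.43% of all genes). Summed over the members, the level was 13602 to 24988 CPM after sham and 6285 to 11695 CPM after IRI. The plot of fold changes by role shows the spread.

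**Figure D1:**
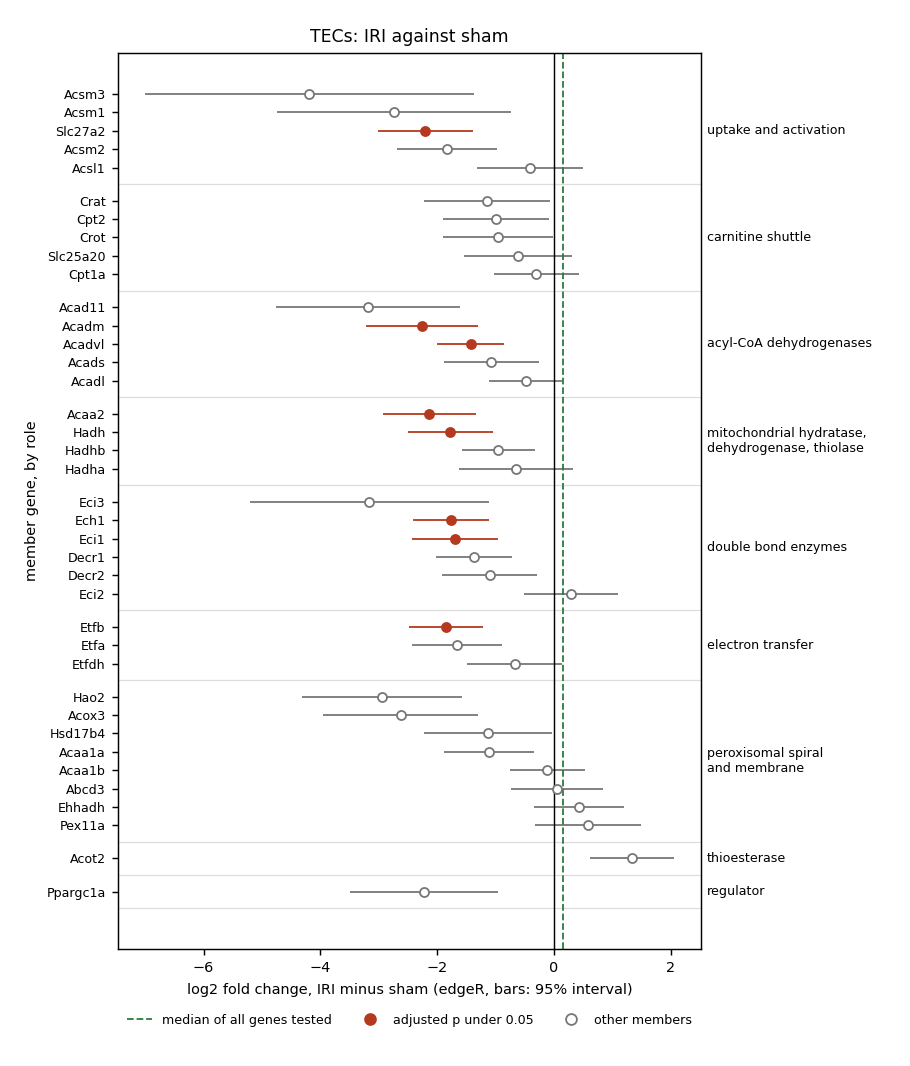
Each point is the log2 fold change of 1 member between IRI and sham in TECs (x axis), averaged over RIPC and control, with bars of the 95% interval; members are grouped by role on the y axis and the dashed line is the median of all genes tested (0.15). The 8 filled points passed the adjusted threshold and all lie left of 0, Acot2 lies farthest right at 1.34, and the peroxisomal members range from -2.94 to 0.58.

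The count depended on single libraries. In a test on simulated TEC data the unchanged genes among the calls were more than the threshold allows. Single calls near the threshold, such as Eci1, Acadm, Hadh and Acadvl, are therefore less sure. The count of members called was 1 without TEC sham RIPC replicate 1 or without TEC sham RIPC replicate 2, 2 without TEC sham control replicate 2, 4 without TEC sham RIPC replicate 3, and 14 without TEC IRI RIPC replicate 3. The shares over all genes with 1 library left out are not reported here, so these changes in the count do not set the members apart from other genes. With neither TEC IRI RIPC replicate 3 nor TEC sham control replicate 1, the libraries that stood apart by tubule or injury markers, 13 members were lower and 1, Acot2, was higher (2.96% of 24503 genes passed). Eci1 was no longer called in that setting (edgeR adjusted p = 0.0554). Hao2, Acox3, Acsm2, Acsm3, Etfa and Acad11 were called lower there but not with all libraries.

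The genes of uptake and activation come first in the pathway. Slc27a2, which encodes a very long chain acyl-CoA synthetase that also takes up fatty acids, stood at 2445, 2999 and 1429 CPM in sham control, 1064, 1376 and 887 in sham RIPC, 325 and 224 in IRI control and 175, 309.8 and 827 in IRI RIPC. IRI and sham libraries did not overlap, although IRI RIPC replicate 3 came close to the lowest sham library. The fall was 4.6-fold (log2 fold change -2.20, SE 0.41, adjusted p = 0.0189). Acsm2, a medium-chain acyl-CoA synthetase, had the highest counts of all members in sham TECs, from 1861 to 3505 CPM with a median of 2728, and stood at 592 and 598 CPM in IRI control and 455, 335 and 2004 CPM in IRI RIPC. Its replicate 3 after IRI with RIPC lay among the sham libraries, and the difference missed the threshold (-1.83, SE 0.43, adjusted p = 0.0534). Acsm3, of the same family, was at 16.0 to 239 CPM after sham (median 61.6) and at 1.5, 2.19, 0.078, 0 and 27.6 CPM after IRI, with an adjusted p of 0.202. Acsm1 did not overlap between the operations (101 to 259 CPM after sham, 0.19 to 91.8 after IRI) but had an adjusted p of 0.243. Acsl1, a long-chain acyl-CoA synthetase, differed by -0.41 (SE 0.46, adjusted p = 0.756), with IRI RIPC replicate 3 the highest library of all at 515 CPM.

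The carnitine shuttle moves long chains into mitochondria, and none of its 5 genes passed the test. Cpt1a, the outer-membrane carnitine palmitoyltransferase and the entry step, ran from 82.2 to 159 CPM after sham (median 137) and stood at 134, 98.2, 131, 68.4 and 100 CPM after IRI. These ranges overlapped almost fully (-0.31, SE 0.37, adjusted p = 0.779). Cpt2, its partner on the inner membrane, was at 99.8 to 215 CPM after sham (median 173) and at 127, 48.3, 30.1, 129 and 76.0 CPM after IRI (-0.99, SE 0.46, adjusted p = 0.328). Crat, carnitine acetyltransferase, ran from 68.1 to 209 CPM (median 119.5) against 122, 24.2, 22.8, 15.9 and 83.8 CPM. Crot, the peroxisomal carnitine octanoyltransferase, ran from 69.9 to 522 CPM (median 256) against 116, 113, 35.2, 189.5 and 155 CPM. Both had intervals that reached close to 0 and adjusted p-values of 0.346 and 0.365. Slc25a20, the carnitine-acylcarnitine carrier, differed by -0.62 (SE 0.47, adjusted p = 0.60).

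Acyl-CoA dehydrogenases start each round of the mitochondrial spiral, and 2 of the 5 fell. Acadvl acts on very long chains and stood at 666, 748 and 536 CPM in sham control, 630.0, 713 and 526 in sham RIPC, 284 and 274 in IRI control and 207, 158 and 239 in IRI RIPC. It had the smallest SE of the 8 that fell, and the difference was 2.68-fold (-1.42, SE 0.29, adjusted p = 0.0302). Over the alternatives, however, Acadvl kept its call in 9 and lost it in 8. Acadm, for medium chains, stood at 829, 1187 and 636 CPM in sham control, 770.2, 858 and 553 in sham RIPC, 211 and 102 in IRI control and 104, 54.5 and 379.6 in IRI RIPC, a fall of 4.78-fold (-2.26, SE 0.49, adjusted p = 0.0379). Acad11, a further acyl-CoA dehydrogenase, had the larger fold change of -3.19 (SE 0.80) and did not overlap, with 132 to 439 CPM after sham (median 187) and 4.46, 32.8, 2.65, 34.2 and 78.7 CPM after IRI, yet its adjusted p was 0.0721. Acads, for short chains, differed by -1.07 (SE 0.41, adjusted p = 0.254) and Acadl, for long chains, by -0.49 (SE 0.32, adjusted p = 0.519), so the 5 enzymes did not differ to the same degree, although these differences between genes were not tested.

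Of the later mitochondrial steps, Hadh and Acaa2 fell. Acaa2, a thiolase that closes the round, stood at 1193, 1590.3 and 1065 CPM in sham control, 1373, 1482 and 789 in sham RIPC, 359 and 181 in IRI control and 142, 213 and 544 in IRI RIPC (4.39-fold, log2 fold change -2.13, SE 0.40, adjusted p = 0.0202). Hadh, the hydroxyacyl-CoA dehydrogenase for shorter chains, stood at 565, 706 and 499 CPM in sham control, 645, 519.9 and 511 in sham RIPC, 237 and 116 in IRI control and 175, 76.9 and 225 in IRI RIPC. Its highest IRI library lay far under its lowest sham library, and it was 3.42-fold lower (-1.78, SE 0.37, adjusted p = 0.0317). Hadha and Hadhb encode the subunits of the mitochondrial trifunctional protein, which handles long chains. Hadhb did not overlap, at 368 to 470.1 CPM after sham (median 430.2) against 240.3, 119, 288, 192 and 312 CPM after IRI, but missed the threshold (-0.95, SE 0.32, adjusted p = 0.189), and Hadha differed by -0.65 (SE 0.50, adjusted p = 0.602). About 19.7% of the 50-base stretches of Hadhb transcripts recur in another annotated gene, so its reads are less surely assigned.

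Unsaturated chains need auxiliary enzymes that move or reduce double bonds. Ech1, a dienoyl-CoA isomerase of mitochondria and peroxisomes, stood at 1620.1, 1215 and 942 CPM in sham control, 1152, 1146 and 939.6 in sham RIPC, 488 and 210.2 in IRI control and 213, 415 and 382 in IRI RIPC, and fell 3.40-fold (-1.77, SE 0.34, adjusted p = 0.0202). Eci1, the mitochondrial enoyl-CoA isomerase, stood at 638, 384 and 248 CPM in sham control, 385, 382 and 351 in sham RIPC, 101 and 168 in IRI control and 70.2, 146 and 121 in IRI RIPC. That was 3.23-fold lower (-1.69, SE 0.38, adjusted p = 0.0412). Decr1, the mitochondrial dienoyl-CoA reductase, lay just outside the threshold at an adjusted p of 0.0626, with 287 to 500.3 CPM after sham (median 327) and 212, 179.7, 61.6, 115 and 101 CPM after IRI, and without overlap. Their peroxisomal relatives did not pass. Decr2 (-1.10, SE 0.42, adjusted p = 0.247) and Eci3 (-3.16, SE 1.05, adjusted p = 0.183) did not overlap between the operations, while Eci2 stood at a log2 fold change of 0.29 (SE 0.41, adjusted p = 0.829).

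Electron-transferring flavoprotein takes electrons from all acyl-CoA dehydrogenases. Etfb, its beta subunit, had the smallest adjusted p of the set and stood at 1291, 1788 and 912 CPM in sham control, 1429, 1396 and 1255 in sham RIPC, 489 and 373 in IRI control and 205, 284 and 480.1 in IRI RIPC. The fall was 3.61-fold (-1.85, SE 0.32, adjusted p = 0.0131), and it was the only one of the 8 that passed whichever library was left out (largest adjusted p = 0.0458). However, 44.8% of the 50-base stretches of its transcripts recur in other annotated genes, mainly Gm45233, so its reads could be split between them. Etfa, the alpha subunit, ran from 475 to 1111 CPM after sham (median 599) and stood at 237, 177, 153, 126 and 401 CPM after IRI, without overlap and just outside the threshold (-1.66, SE 0.39, adjusted p = 0.0545). Etfdh, which hands the electrons on to ubiquinone, ran from 150.1 to 465 CPM (median 365) against 252, 125, 175, 141 and 339 CPM (-0.67, SE 0.41, adjusted p = 0.493).

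None of the 8 genes of the peroxisomal spiral and membrane passed with all libraries. With neither TEC IRI RIPC replicate 3 nor TEC sham control replicate 1, a setting chosen after seeing the data, Hao2 and Acox3 passed. There Hao2 stood at -3.95 (SE 0.50, edgeR adjusted p = 0.00123) and Acox3 at -3.29 (SE 0.65, edgeR adjusted p = 0.0165), and the others did not pass. Hao2, a peroxisomal hydroxyacid oxidase of the tubule, stood at 206, 768 and 514 CPM in sham control, 345, 549 and 165 in sham RIPC, 49.2 and 48.3 in IRI control and 25.8, 7.48 and 149.6 in IRI RIPC. It did not overlap and lay just outside the threshold (-2.94, SE 0.70, adjusted p = 0.0541). Acox3, an acyl-CoA oxidase for branched chains, ran from 52.1 to 166 CPM (median 121) against 19.9, 25.2, 1.48, 10.7 and 34.7 CPM (-2.63, SE 0.68, adjusted p = 0.0803). Hsd17b4, the D-bifunctional protein, differed by -1.13 (SE 0.56, adjusted p = 0.358).

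Ehhadh, the L-bifunctional protein and a classical PPAR alpha target, overlapped between the operations. It stood at 2527, 1224 and 404 CPM in sham control, 675, 595 and 447 in sham RIPC, 1711 and 831 in IRI control and 1267, 1022 and 1111 in IRI RIPC. The sham libraries spanned the whole IRI range, but their highest value was that of sham control replicate 1, the library with high injury markers. The difference was 0.43 (SE 0.39, adjusted p = 0.677, 95% interval from -0.34 to 1.2). With neither TEC IRI RIPC replicate 3 nor TEC sham control replicate 1 it was 0.94 (SE 0.33, edgeR adjusted p = 0.201). The peroxisomal thiolases Acaa1a and Acaa1b are close copies that share sequence (12.9% and 30.5% of their stretches recur elsewhere). Acaa1a ran from 289.5 to 563 CPM after sham (median 317) and stood at 215, 208, 136, 45.6 and 193 CPM after IRI, without overlap (-1.11, SE 0.40, adjusted p = 0.221). Acaa1b ran from 505 to 1157 CPM (median 952) and stood at 1331, 551, 793, 856 and 527 CPM (-0.12, SE 0.33, adjusted p = 0.966). Abcd3, a transporter of the peroxisomal membrane, differed by 0.05 (SE 0.40) and Pex11a, a peroxisome division factor, by 0.58 (SE 0.46), both far from the threshold.

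Acot2, a mitochondrial thioesterase that releases free fatty acid from acyl-CoA, was the member with the largest positive difference. It stood at 376, 154 and 118 CPM in sham control, 161, 150.5 and 97.8 in sham RIPC, 409.6 and 401 in IRI control and 484, 361 and 554 in IRI RIPC. All IRI libraries but IRI RIPC replicate 2 lay above all sham libraries, and sham control replicate 1, the library with high injury markers, was the only sham library in their range. The difference was 2.53-fold (log2 fold change 1.34, SE 0.37) at an adjusted p of 0.0971, and 27.7% of its stretches recur elsewhere, mainly in Acot1. Ppargc1a, which encodes PGC-1 alpha, was scarce, at 17.3, 109 and 85.3 CPM in sham control, 58.9, 122 and 55.7 in sham RIPC, 28.8 and 12.3 in IRI control and 9.31, 21.8 and 5.81 in IRI RIPC. Only sham control replicate 1 lay in the IRI range (-2.23, SE 0.64, adjusted p = 0.119). The plot of single libraries sets these patterns side by side.

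**Figure D2:**
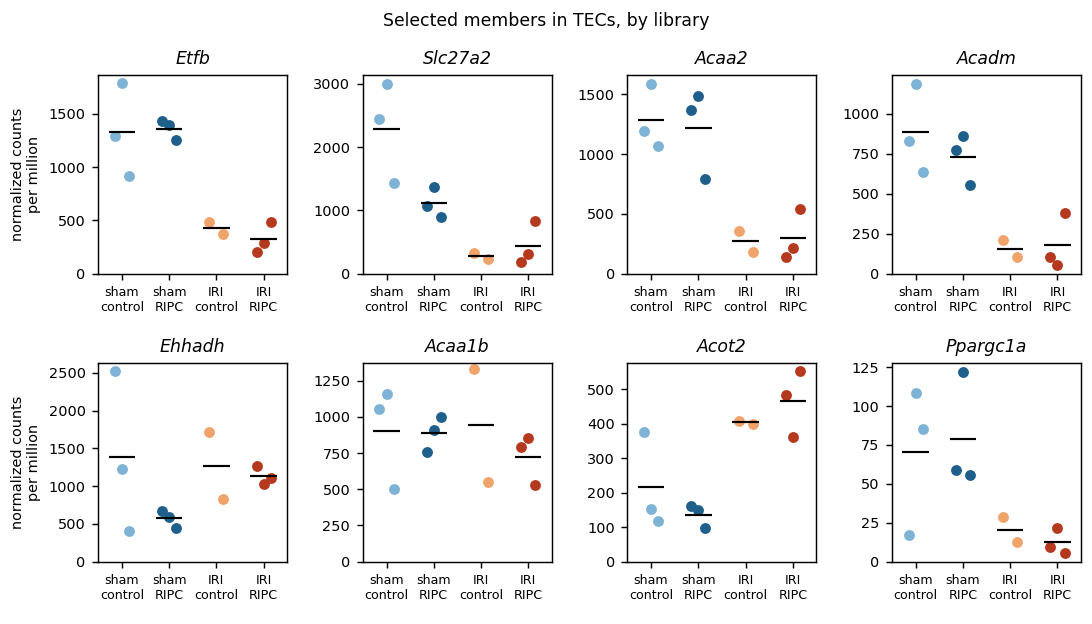
Normalized CPM (y axes, starting at 0) of 8 members in each TEC library by group (x axes), with a line at each group mean. Etfb, Slc27a2, Acaa2 and Acadm lie lower in all IRI libraries than in any sham library, Ehhadh and Acaa1b overlap, Acot2 is higher in most IRI libraries and Ppargc1a is low after IRI and in 1 sham control library.

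By compartment, 6 of the 20 purely mitochondrial members fell (median -1.40), 2 of the 5 with several locations, and none of the 12 peroxisomal members (median -1.03). The difference between compartments was not tested. Of the peroxisomal members Hao2 and Acox3 passed with neither TEC IRI RIPC replicate 3 nor TEC sham control replicate 1. Peroxisomal enzymes outside the set, given below, included genes that fell. Per length, in TPM (transcripts relative to all transcripts of a library, corrected for length), Etfb was the most abundant member in both conditions, at 1181 ± 277 (SD, n = 6) after sham and 293 ± 70.8 (SD, n = 5) after IRI. Ech1 (637 ± 59.3 TPM) and Acsm2 (633 ± 129 TPM) followed after sham and did not differ from each other beyond their spread. After IRI the second place was taken by Acaa1b, at 277 ± 129 TPM, within its own spread of Etfb, and Ehhadh stood in the fifth place at 160.3 ± 56.2 TPM. Ppargc1a held the last place after sham, at 10.3 ± 4.40 TPM.

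The proximal tubule markers moved with the members. Of the 20 markers 9 fell and the median was -2.37, beyond the members' -1.14. The summed members per summed markers were 0.595 to 1.10 after sham and 0.969 to 1.78 after IRI in TECs, which overlap, and 0.642 to 1.13 after sham and 1.35 to 2.76 after IRI in PMNs, which do not. Of the 13 injury markers 2 rose, Krt20 (3.07 CPM on average after sham and 1054 after IRI, adjusted p = 0.00466) and Sox9. Reads from mitochondrial genes made up 18.8% to 29.1% of the TEC sham libraries and 13.1% to 23.9% of the TEC IRI libraries. The part of tubule content, depth or RNA quality in the members' difference was not tested.

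**Figure D3:**
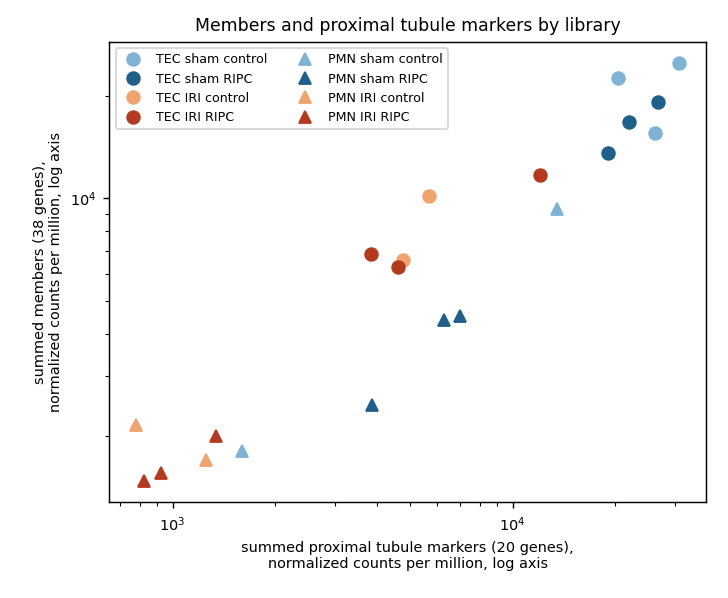
Summed CPM of the 38 members (y axis, log) against the summed CPM of 20 proximal tubule markers (x axis, log) in each of the 21 libraries, TECs as circles and PMNs as triangles, coloured by group. The libraries highest in tubule marker RNA were also high in member RNA in both cell types, which were scaled separately, and PMN sham control replicate 2 (13541 CPM of markers) lies next to TEC IRI RIPC replicate 3 (12066 CPM).

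Other genes of the pathway outside the set, compiled as lists, showed a similar spread. Among 21 tested further genes of fatty acid oxidation 3 fell (Slc25a42, Acsm5 and Acat1, median of the list -1.10), and among 36 other peroxisomal enzymes and carriers 11 fell and none rose (median -1.59). In the peroxisomal list Scp2, a thiolase and sterol carrier, fell from 789.7 to 1612 CPM after sham to 329, 279.6, 219.6, 259 and 307 CPM after IRI (log2 fold change -1.96, SE 0.31, adjusted p = 0.00768). Pecr, an enoyl-CoA reductase, fell by 3.41 (SE 0.56, adjusted p = 0.0108), the carrier Slc25a17 by 2.80 (SE 0.48, adjusted p = 0.0129) and the epoxide hydrolase Ephx2 by 2.70 (SE 0.47, adjusted p = 0.0131), all on the log2 scale. Cat, catalase, fell by 1.60 (SE 0.32, adjusted p = 0.0273). None of the 20 peroxisome biogenesis genes passed (median -0.75).

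Known PPAR alpha targets outside oxidation went in both directions, with 5 lower and 1 higher of 20. Cyp4a10 and Cyp4a14, fatty acid omega-hydroxylases, fell by 3.80 (SE 0.48, adjusted p = 0.00264) and 4.37 (SE 0.59, adjusted p = 0.00388) on the log2 scale. Plin2, which coats lipid droplets, rose. It was at 2764, 171, 159, 145, 217 and 123 CPM in the sham libraries and at 12484, 9535, 9409.9, 5803 and 5218 CPM in the IRI libraries (log2 fold change 4.40, SE 0.65, adjusted p = 0.00671), the highest sham value again being that of sham control replicate 1. It was the only gene of 29 in the list of fatty acid synthesis and storage that passed (median -0.40). Pdk4, which holds back glucose oxidation, averaged 344 CPM after sham and 1692 CPM after IRI with overlap (adjusted p = 0.112).

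In the list of fatty acid uptake and binding 3 of 14 genes fell (Fabp3, Fabp7 and Lrp2, median -1.45), and Cd36 did not pass (-1.86, SE 0.70, adjusted p = 0.242). Lrp2 is also counted among the proximal tubule markers. None of the 27 transcriptional regulators passed, with a median of -0.29. Hnf4a, a nuclear receptor of the proximal tubule, stood at -1.74 (SE 0.48, adjusted p = 0.101), Prkaa2, a catalytic subunit of AMPK, at -1.27 (SE 0.44, adjusted p = 0.203), Ppara at -0.63 (SE 0.59, adjusted p = 0.690) and Esrra at -0.73 (SE 1.25, adjusted p = 0.876).

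Taken separately, the arms of the IRI comparison in TECs gave no call among the members. Without RIPC none of the 38 passed (edgeR, 0.00386% of all genes did, and 18 members and 8.59% of all genes had an unadjusted p under 0.05), with a median of -1.29, and with RIPC none passed either (0.0965% of all genes, with 18 members and 8.85% of all genes at an unadjusted p under 0.05), with a median of -1.28. DESeq2 with apeglm shrinkage, at an s-value under 0.01, called 13 members without RIPC and 12 with RIPC (4.3% and 4.39% of all genes), and the DESeq2 Wald test called 10 and 6 (6.97% and 5.56% of the genes to which it gave an adjusted p, as in its later shares). The groups did not overlap, with all IRI libraries lower, in 27 members without RIPC (9.57% of all genes) and in 21 with RIPC (9.9%). Slc27a2 had the smallest adjusted p without RIPC (-3.06, SE 0.65, adjusted p = 0.139) and Etfb with RIPC (-2.07, SE 0.42, adjusted p = 0.0921).

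RIPC against control was the comparison the study was built on. No member passed in TECs after sham (0% of all genes in edgeR) or after IRI (0.00386%), and none passed for the interaction of RIPC and surgery (0%). At an unadjusted p under 0.05 there was 1 member in each of the 3 comparisons, where 4.53%, 4.35% and 7.21% of all genes were. The DESeq2 Wald test called no member in any of them (2.08%, 3.56% and 2.98% of all genes), nor did DESeq2 with apeglm after sham (0.239%) or after IRI (0.949%). These comparisons share their control libraries with those of IRI against sham. The member nearest to the threshold after sham was Ehhadh (-1.27, SE 0.54, unadjusted p = 0.0315, adjusted p = 0.708), for which sham RIPC held 675, 595 and 447 CPM against 2527, 1224 and 404 CPM in sham control. The high control values came from replicates 1 and 2, and replicate 1 was the library with high injury markers. After IRI it was Decr1, at 61.6, 115 and 101 CPM with RIPC and 212 and 179.7 CPM without (-1.08, SE 0.47, adjusted p = 0.778). Slc27a2 led the interaction (1.72, SE 0.78, adjusted p = 0.689), with a difference of -1.05 (SE 0.51) after sham and of 0.67 (SE 0.58) after IRI. The 95% interval of Ehhadh after sham was wide, from -2.32 to -0.23. Ehhadh was picked as the member nearest to the threshold, so its interval by itself shows no difference. With SEs of the size given here, these libraries also do not show that RIPC left the members alike.

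In PMNs the members summed to 1804 to 9305 CPM after sham and 1471 to 2160 CPM after IRI. No member passed between IRI and sham (edgeR, 0.416% of 25002 genes did, with 10 members and 11.8% of all genes at an unadjusted p under 0.05), while the DESeq2 Wald test called 7 (11.5% of all genes). The median was -0.95 against -0.01 for all genes. All IRI libraries were lower for 4 members (2.08% of all genes), Ech1, Decr1, Etfb and Eci1, and higher for 2 (3.43%), Pex11a and Slc25a20. Ech1 was at 175 and 905 CPM in sham control and 460.3, 384 and 231 CPM in sham RIPC against 61.1 to 125 CPM after IRI (-2.26, SE 0.47, adjusted p = 0.116). Decr1 was at 25.8 and 345 CPM and 184, 128 and 72.1 CPM against 1.53 to 12.8 CPM (-4.60, SE 0.98, adjusted p = 0.121). Both were highest in sham control replicate 2, the library with most tubule markers, and without that library the median of the members was -0.31. In PMNs the proximal tubule markers had a median of -2.36 over the same comparison, and their part in the members' values was not tested.

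Pex11a went the other way in PMNs. It had 5, 0, 8, 0 and 0 reads in the sham libraries and 690, 748, 212, 10 and 167 reads in the IRI libraries, where 0 reads allow up to 3 (0.132 to 0.145 CPM in these libraries). The adjusted p was 0.304. Slc25a20 was at 16.1 and 28 CPM in sham control and 0.85, 32.7 and 3.53 CPM in sham RIPC, and at 65.4, 47.8, 34.0, 96.2 and 94.6 CPM after IRI (1.98, SE 0.93, adjusted p = 0.413). Neither the separate arms nor RIPC against control after either operation nor their interaction gave a call in PMNs by edgeR (0% of all genes without RIPC, 0.248% with RIPC, 0.004% for RIPC after sham, 0% after IRI and 0% for the interaction). At an unadjusted p under 0.05 there were 9, 9, 1, 0 and 0 members in that order (4.45%, 10.1%, 4.6%, 2.72% and 5.74% of all genes). The DESeq2 Wald test called 2, 2, 0, 0 and 0 (4.52%, 9.95%, 4.77%, 2.36% and 4.01% of all genes). DESeq2 with apeglm called 1 member for RIPC after sham, and its share over all genes is not reported here. No member passed the test of a difference in the effect of IRI between PMNs and TECs (edgeR, 0% of all genes). At an unadjusted p under 0.05 there were 5 members (9.76% of all genes), and the DESeq2 Wald test called 4 (11.2%). Pex11a had the smallest adjusted p by edgeR (6.07, SE 1.47, adjusted p = 0.175).

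Between the cell types most members differed. Averaged over the 4 conditions, 27 of the 38 were lower in PMNs than in TECs and none was higher (edgeR on all 21 libraries, 6.87% of 31769 genes called, 3.95% lower and 2.91% higher), the median was -1.78 against -0.02 for all genes, and 37 of the 38 lay below 0. In 4 members, Acot2, Ehhadh, Acaa1b and Acadl, every PMN library lay below every TEC library (0.283% of all genes), and in none did every PMN library lie above (0.818%). The cell types differ in organ and isolation too, which cannot be told apart from cell type here. After IRI alone, where the PMN libraries held few tubule markers, 13 members were lower and none higher (2.67% of all genes called, 1.17% lower), and after sham alone 8 were lower (2.62% called, 1.13% lower).

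The 10 members with the smallest adjusted p span the roles. On a common scale over all libraries Acot2 had a lowest, median and highest level of 5.89, 39.9 and 59.1 CPM in PMNs and 93.2, 333 and 542 CPM in TECs (-3.17, SE 0.41, adjusted p = 3.90e-05). Pex11a ran from 0 to 29.5 CPM in PMNs (median 0.42) and from 19.9 to 127 CPM in TECs (median 59.3). The ranges met only through the PMN IRI control libraries. Acaa2 ran from 34.8 to 444 CPM in PMNs (median 67.4) and from 140.4 to 1432 CPM in TECs (median 751). Acaa1b ran from 22.1 to 441 CPM (median 67.7) against 485 to 1309.8 CPM (median 789), and Acads from 2.97 to 38.4 CPM (median 10.6) against 26 to 254 CPM (median 125). Ehhadh had the widest gap of the spiral enzymes. It lay between 0.082 and 164 CPM in PMNs (median 45.6) and between 388 and 2408 CPM in TECs (median 943), a log2 fold change of -4.32 (SE 0.68).

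Acsm2 lay between 34.3 and 1189 CPM in PMNs (median 106) and between 309 and 3157 CPM in TECs (median 1959.8). Acadl lay between 25.2 and 234 CPM in PMNs (median 70.2) and between 234 and 485 CPM in TECs (median 322), without overlap. In Slc27a2 the ranges were 34.3 to 879.9 CPM (median 93.4) and 173 to 2701 CPM (median 845), and in Decr1 1.58 to 355 CPM (median 20.2) and 60.8 to 477 CPM (median 275). In 8 of these 10 members the highest PMN value was that of sham control replicate 2, as the map of all libraries shows. Without it 27 members were still called and the median was -2.16.

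**Figure D4:**
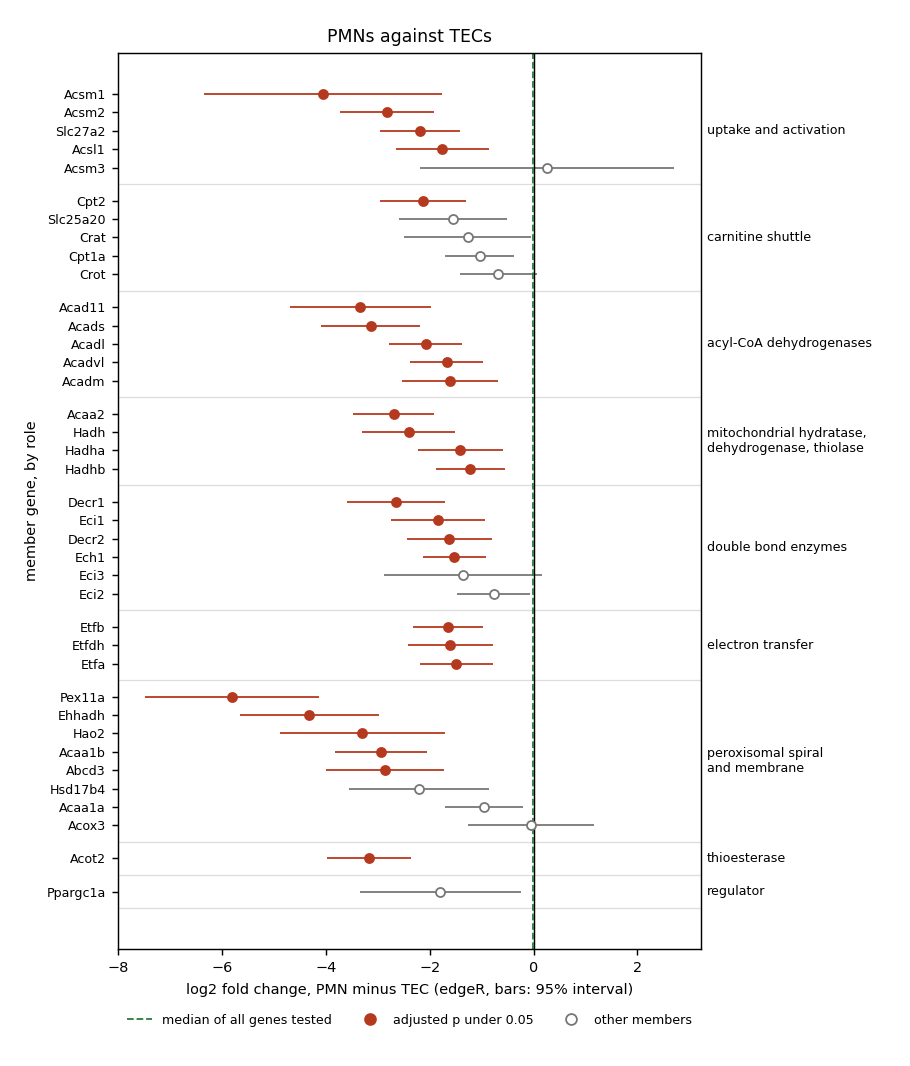
Log2 fold change of each member between PMNs and TECs (x axis), averaged over the 4 conditions, with bars of the 95% interval; members are grouped by role on the y axis and the dashed line is the median of all genes tested (-0.02). The 27 filled points passed the adjusted threshold and lie left of 0, with Pex11a lowest at -5.81 and Acsm3 highest at 0.26.

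By role, all 5 acyl-CoA dehydrogenases, all 4 genes of the later mitochondrial steps and all 3 of electron transfer were lower in PMNs, as were 4 of 5 in uptake and activation, 5 of 8 in the peroxisomal group and 4 of 6 double bond enzymes. The calls of Hadha and Acadm were the least stable of these. Over the alternatives Hadha kept its call in 8 and lost it in 19, and Acadm kept it in 15 and lost it in 12. The carnitine shuttle stood out least, with Cpt2 alone called (-2.13, SE 0.43, adjusted p = 0.00298) and Cpt1a at -1.03 (SE 0.34, adjusted p = 0.0753). Acox3 (-0.05, SE 0.62) and Acsm3 (0.26, SE 1.25) had averages near 0, with intervals beyond 1 log2 unit on either side. For Acox3 the average joins differences of opposite sign, -2.05 (SE 0.91, adjusted p = 0.254) after sham alone and 1.95 (SE 0.93, adjusted p = 0.343) after IRI alone, neither past the threshold.

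**Figure D5:**
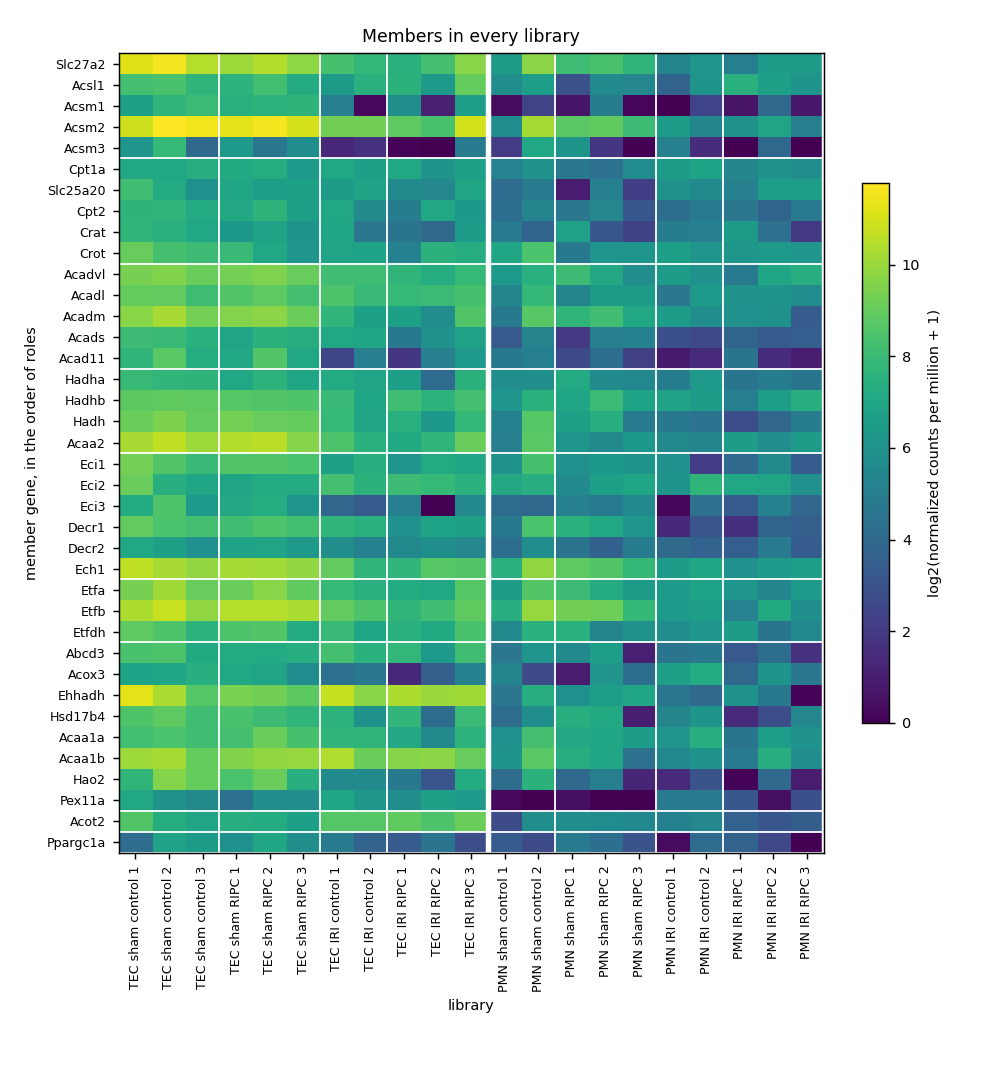
Level of each member (y axis, in the order of roles) in each of the 21 libraries (x axis) as log2 of normalized CPM plus 1, with white lines between roles and between groups and a thick line between TECs and PMNs. TEC sham libraries are brightest, PMN sham control replicate 2 is the brightest PMN library, Pex11a is near 0 in all PMN sham libraries, and Ehhadh and Acaa1b stay bright in the TEC IRI libraries.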

How the data were processed

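RNA was taken from isolated cells and sequenced as single-end reads. The authors trimmed reads with Trim Galore 0.6.4 and quantified transcripts with Salmon 1.0.0, and they deposited estimated counts (NumReads) and TPM per transcript in 2 files per library. The build in the labels is mm10. Estimated counts were added over the transcripts of a gene and over both files of a library, with gene names from Gencode for GRCm38, and rounded to whole numbers. Of 140748 transcripts 884 had no match, holding 0.139% to 0.255% of a library's reads. The TPM shown are the deposited TPM, averaged over the files and added over transcripts. Genes on sex chromosomes and mitochondrial genes were left out of the fits.

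Counts were fitted with edgeR 4.0.16 (R 4.3.3, limma 3.58.1) by the quasi-likelihood F test, with TMM scaling, filterByExpr (minimum count 10, total 15) and 1 mean per group, in TECs, in PMNs and in all 21 libraries for the cell type comparison. P-values were adjusted by Benjamini and Hochberg over all genes tested, with a threshold of 0.05. An SE is the log2 fold change divided by the root of F. The 95% intervals in the text and figures use the SE with a normal approximation. They are therefore narrower than the F test implies. The fits were tested on simulated data, in which unchanged genes made up more of the TEC calls than the threshold allows. DESeq2 1.42.0 (Wald test, and apeglm 1.24.0 with an s-value under 0.01), other scaling, no filter, a replicate block, a length offset, the first file alone and leaving out each library were alternatives. Stretches of 50 bases of the members' transcripts were looked up in the transcripts of all other genes. A count of 0 reads allows up to 3, which covers counting error only.

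The members, roles and gene lists were chosen with earlier results of these data known. Levels in TECs are given for up to 3 members per role with the smallest adjusted p after IRI, and for Ppargc1a, Ehhadh and Acaa1b. For these the IRI libraries are given singly, and the sham libraries singly or as a range and median. For the 10 members with the smallest adjusted p between cell types, the range and median in each cell type are given. Results for some genes of the compared lists are not reported here.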

Additional observations from a re-analysis of the deposited data

How the results depend on the processing

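No call of a member changed direction under the alternatives run, whereas members that did not pass could change sign. Acaa1b did so in TECs between IRI and sham. It stood at a log2 fold change of 0.145 (SE 0.310) with neither TEC IRI RIPC replicate 3 nor TEC sham control replicate 1. The number of members called in TECs between IRI and sham, 8, was 7 with DESeq2 size factors, 6 with a length offset, 9 with the first file alone, 18 without a filter on low counts and 19 by the DESeq2 Wald test, and 1 to 14 when 1 library was left out. Over all genes the call count of 363 was 1289 without the filter and 2234 by the Wald test. The median of all genes was 0.15 with TMM and 0.28 with size factors. Without RIPC the count of 0 was 10 without a filter, 10 by the Wald test, 13 by apeglm and 0 to 2 with a library left out, and with RIPC it was 7, 6, 12 and 0 to 6. In PMNs the count of 0 between IRI and sham was 6 without a filter, 7 by the Wald test and 0 to 5 with a library left out, the 5 without PMN sham control replicate 1. Its arms gave 2, 2 and 2 (no filter, Wald, apeglm) without RIPC and 4, 2 and 4 with RIPC, and apeglm called 1 member for RIPC after sham. For these PMN comparisons the shares over all genes without a filter and by apeglm are not reported here. Those counts therefore do not set the members apart from other genes. Over all genes in PMNs the count of 104 was 971 without a filter and 1955 by the Wald test. Between cell types the count of 27 was 25 to 30 under the planned settings and 19 to 28 with a library left out (over all genes 2182, and 5379 by the Wald test), and the difference in the effect of IRI was 2 without a filter, 4 by the Wald test and 0 to 1 with a library left out. Where neither this paragraph nor the Results give a count or share over all genes for a setting, it is not reported here. Such counts do not set the members apart from other genes. The causes of these changes were not tested. Settings chosen after seeing the data gave 13 members after IRI alone, 8 after sham alone, and 14 in TECs with neither TEC IRI RIPC replicate 3 nor TEC sham control replicate 1.

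Libraries with the same replicate number correlated in their deviations from the group means at -0.09 to 0.11 in TECs and -0.02 to 0.02 in PMNs. Libraries with different numbers lay at -0.10 to 0.06 in TECs and -0.02 to 0.02 in PMNs. These values give no sign of pairing by number, but with so few libraries per group they cannot exclude it. Pairs of a PMN and a TEC library were not checked. With the replicate number as a block the counts of members were 9 in TECs, 0 in PMNs and 25 between cell types, and over all genes 23 in PMNs. The counts over all genes with this block in TECs and between cell types are not reported here. Groups held 2 or 3 libraries, and no alternative varied the depth beyond using the first file alone.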
